A study of Morus alba with 35 samples.

Results

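Among the 31401 annotated genes of white mulberry (Morus alba), 18 had control means within 2-fold of each other over 72 h but stood low in elicited cells late in the course. Such controls are called even here, although in the 18 the highest control mean was a median of 1.84 times the lowest. The material was a cell suspension from stem tissue, grown in the dark. Control flasks received only the ethanol carrier (2.1 µL per mL), and elicited flasks received, in the same ethanol volume, 50 mM methylated cyclodextrin (MBCD) with 100 µM methyl jasmonate (MeJA). Both treatments were sampled by mRNA sequencing at 0.5, 6, 12, 24, 48 and 72 h, with 2 control libraries at each time, 3 elicited libraries at 0.5 and 6 h and 4 elicited libraries at each later time. The labels name no line or clone beyond the stem-derived suspension.

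Methyl jasmonate is a volatile form of jasmonate, the hormone through which plants switch from growth to chemical defence. Jasmonate perception removes repressor proteins of the JAZ family and so frees transcription factors, while many genes of growth are turned down. Cyclodextrins are rings of glucose units that are used to elicit stilbenes such as oxyresveratrol in cultured cells and to hold the secreted products in the medium. The deposited identifiers come without gene names or products, so the genes are described by identifier, position and structure, nothing is said of what they encode, and the cell type was not checked against marker genes.

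The 18 genes were picked on measured values, which are therefore a description and were not tested. Levels are CPM, a gene's count as a share of its library's total count on the usual CPM scale, and the log2 ratio of the rule adds 1 CPM to both group means. The lowest control mean had to be at least 5 CPM and the highest at most 2 times the lowest, which left 4879 genes. Of these, 45 had an elicited mean at 48 h at least 2.5 times below the one at 0.5 h. A mean of at least 2 CPM in elicited cells at 72 h left 43, a log2 ratio to control of at most -0.8 at 72 h left 20, and a log2 ratio within 0.5 of zero at 0.5 h left the 18. At the edges, the fall to 48 h was 2.51-fold in the last gene inside and 2.48-fold in the first outside, the ratio at 72 h was -0.81 against -0.79, and the spread of the control means was 1.99-fold against 2.00-fold. A further 195 genes met every criterion but the evenness of the controls, and 98 every criterion but the fall to 48 h. With the direction turned round (a rise of 2.5 times to 48 h and a log2 ratio of at least 0.8 at 72 h), 6 genes met the rule. The rule read the controls of all times and the elicited libraries of 0.5, 48 and 72 h, but no elicited library of 6, 12 or 24 h. Tests were confined to comparisons that involve those. The steps within elicited cells use no value the rule read, but lie inside the span from 0.5 to 48 h over which it required a fall. Falls in these steps, and low elicited values at 12 and 24 h, were thus favoured by the choice. The comparisons with control at 6, 12 and 24 h have 1 arm, the controls, that was chosen for its level and evenness. The shares called among the 4879 genes with even controls are given beside those of all tested genes. Neither set was chosen for a fall, so these shares do not allow for that part of the choice.

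A pair of the 18 genes is 1 locus counted under 2 names. Mal_HE_154X_1_chr005g018210 (chromosome 5, 17334087 to 17338994, 14 exons) and Mal_HE_154X_1_chr005g018220 (17334299 to 17350041, 28 exons) both lie on the minus strand and share 1331 exon bases, out of summed exon lengths of 1702 and 2649 bases. They held 9259 and 9194 counts over all libraries, and the ratio of their counts lay between 0.969 and 1.04 in every library, so the 2 counts carry nearly the same information. A further gene on this strand (chromosome 5, 17341446 to 17345475, 14 exons, 1428 bases) shares 1238 exon bases with the longer of the pair. It held 36 counts over all libraries, was not tested and is not among the 18. How reads in shared bases were assigned is not given in the sources used here. The 18 genes thus stand for 17 loci. None of the remaining 16 shares exon bases with another gene. Coordinates are those of the deposited table, whose genome build is not given in the sources used here.

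Membership leaned on how libraries were scaled. With CPM computed on TMM-scaled library sizes, which adjust for the genes that take a large share of the reads, 10 genes met the rule, 8 of them among the 18. The 8 were Mal_HE_154X_1_chr012g016030, Mal_HE_154X_1_chr014g002590, Mal_HE_154X_1_chr004g021330, a 2-exon gene of chromosome 4 at 20199373, the 10-exon and 8-exon genes of chromosome 5, and the genes of chromosomes 3 and 6. The 10 that no longer met it were the overlapping pair, the genes of chromosomes 2, 7, 10 and 11, the 2-exon gene of chromosome 4 at 16041151, the 3-exon gene of chromosome 4, the single-exon gene of chromosome 12 at 3904966 and the 5-exon gene of chromosome 12. By library totals, the median of all 20107 tested genes had itself a log2 ratio of -0.17 in the 12 h groups, -0.17 in those of 24 h, -0.19 in those of 48 h and -0.10 in those of 72 h. The fold changes and tests given below are on TMM scaling and so are relative to the median gene. When any 1 of the 34 libraries was left out, between 12 and 21 genes met the rule, and 4 of the 18 met it each time. The number was 12 without control 0.5 h replicate 2, of which 12 were among the 18, and 12 without control 6 h replicate 1, of which 10 were.

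Libraries held 17191217 to 18897243 counts, and the fewest counts of any of the 18 genes in any library was 34. On the second principal component of all tested genes (25.3% of the variance) elicited 12 h replicate 4 stood apart at -0.964, against 38.4 to 50.7 in its 3 fellow libraries. Elicited 48 h replicate 3 stood at 59.7, against 75.8 to 82.1 in its group. As RNA came from whole suspensions, fewer cells with a transcript and less of it per cell cannot be told apart.

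On the CPM scale of the rule, the medians of elicited and control cells were alike at 6 h and lay apart from 12 h. Closeness at 0.5 h was required by the rule. On TMM scaling 2 of the 18 were called lower at 12 h, against 10.2% of all tested genes and 3.98% of those with even controls. At 6 h the median over the 18 genes stood at 71.5% of the 0.5 h level in controls and at 74.3% in elicited cells, and 13 of the 18 were below their 0.5 h mean in controls and 13 in elicited cells. At the 4 later times controls stood at 73.6%, 69.6%, 82.3% and 102%, in that order. Elicited cells stood at 50.3%, 43.1%, 33.1% and 37.4%. The even controls and the low elicited means of 48 and 72 h are what the genes were chosen for, so the distance at these times is a description of the choice. Part of the distance from 0.5 to 48 h in elicited cells was also seen in controls, whose median ratio of the 0.5 h to the 48 h mean was 1.22, against 3.02 in elicited cells. The elicited mean was lowest at 48 h in 10 genes and at 72 h in 6; of the last 2 genes, 1 was lowest at 12 h and 1 at 24 h. Further, from 48 to 72 h the elicited mean was higher in 11 of the 18.

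**Figure D1:**
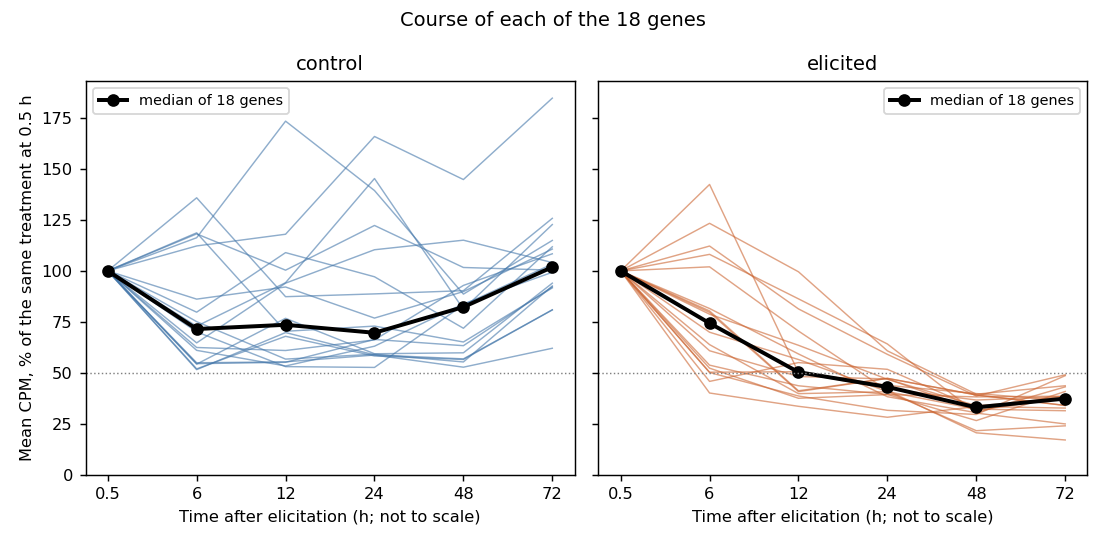
Group mean CPM of each of the 18 genes as a percentage of the same treatment's 0.5 h mean (y axis) by time (x axis), controls on the left and elicited cells on the right, with the median in black. The medians are alike at 6 h (71.5% and 74.3%), and by 72 h, a time the rule read, the controls are at 102% and the elicited cells at 37.4%.

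The same distance from 12 h onward showed in the single libraries, on the CPM scale. For each library the median over the 18 genes of the log2 level relative to the 0.5 h controls was taken, with 1 CPM added. At 6 h the controls gave -0.42 and -0.56 and the elicited libraries -0.26, -0.43 and -0.49, so the groups overlapped. At 12 h the controls gave -0.45 and -0.35 and the elicited libraries -0.94, -1.13, -0.80 and -0.57. At 24 h the controls gave -0.41 and -0.53, and the elicited libraries lay between -1.15 and -0.93. Every elicited library of 12 and 24 h was thus below every control of its time, with elicited 12 h replicate 4, at -0.57, the nearest to the controls. That library held the highest of the 4 values for 13 of the 18 genes. These levels are by library totals, where the median of all tested genes itself had a log2 ratio of -0.17 at 12 h and -0.17 at 24 h. The separation is therefore not all particular to the 18 genes. At 48 and 72 h, which the rule read, elicited libraries lay between -1.49 and -1.17 and controls between -0.41 and 0.050.

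**Figure D2:**
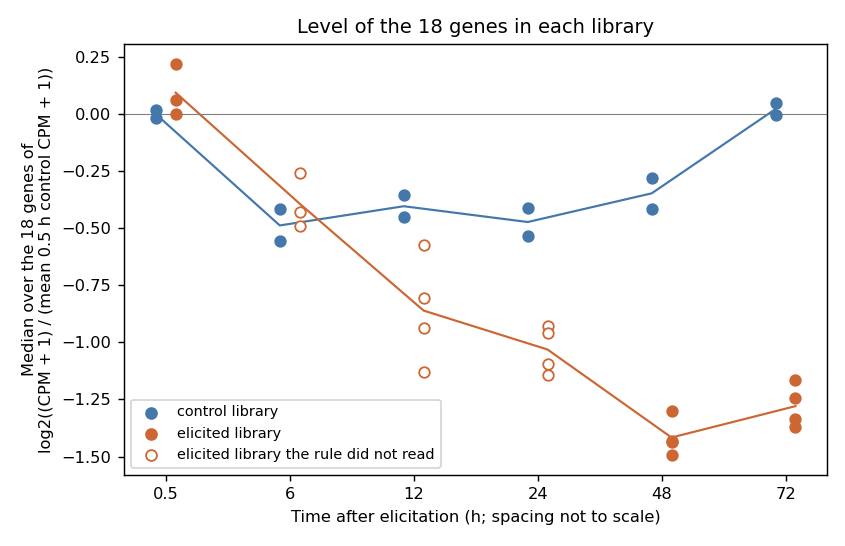
Median over the 18 genes of the log2 level relative to the mean 0.5 h control, with 1 CPM added (y axis), for each library by time (x axis); lines join group means and open points are elicited libraries that the rule did not read. Elicited and control libraries overlap at 6 h and are separate at 12 and 24 h, by library totals and with no adjustment for the median gene.

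At 6 h no gene of the 18 was lower in elicited than in control cells, where 2.6% of all tested genes and 2.6% of those with even controls were (edgeR quasi-likelihood test, Benjamini-Hochberg adjusted p below 0.05 over 20107 genes, as in all tests here). At an unadjusted p below 0.05, 3 were lower, and with DESeq2 0 passed adjustment. The 2 genes that were higher at 6 h, against 3.64% of all tested genes and 2.32% of those with even controls, were the overlapping pair on chromosome 5, which is 1 locus. Log2 fold changes of all 18 genes had a median of -0.021, against -0.013 over all tested genes. Genes with every elicited library below both controls numbered 5 (21.8% of all tested genes) and those with every one above numbered 3 (12.3%).

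At 12 h, 2 of the 18 genes were lower in elicited cells, against 10.2% of all tested genes, and 0 were higher, against 12.8%. Among the genes with even controls 3.98% were lower and 11.4% higher. With DESeq2 these counts were 2 and 0, and at an unadjusted p below 0.05 they were 5 and 0. The 2 lower genes were Mal_HE_154X_1_chr014g002590 and a 10-exon gene of chromosome 5 (10760612 to 10764058, plus strand). The count was 1 when either control library of 12 h was left out, and 4 when both libraries that stood apart were. Log2 fold changes of the 18 had a median of -0.25, with 15 below zero, against -0.012 over all tested genes and 0.047 over the 4879 genes with even controls. Scaling by library size alone gave 7 lower genes. Every elicited library was below both controls for 12 of the 18 genes, against 40.4% of all tested genes on the same CPM scale.

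At 24 h, 9 of the 18 genes were lower in elicited cells, against 17.9% of all tested genes, and 0 were higher, against 21.7%. Among the 4879 genes with even controls 6.74% were lower and 24.4% higher. DESeq2 gave 9 and 0, and an unadjusted p below 0.05 was reached by 10 lower and 0 higher genes. Log2 fold changes of all 18 genes had a median of -0.42, from -1.77 to 0.21, with 16 below zero. The median was 0.0028 over all tested genes and 0.10 over the genes with even controls. Leaving out any 1 library of this time gave between 6 and 8 lower genes, and scaling by library size alone gave 14. In 15 of the 18 genes every elicited library was below both controls, against 45.7% of all tested genes. The elicited mean was below 50% of the control mean in 5 genes by 24 h, in 11 by the 48 h means and in 13 by those of 72 h, the last 2 counts being of values the rule read.

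**Figure D3:**
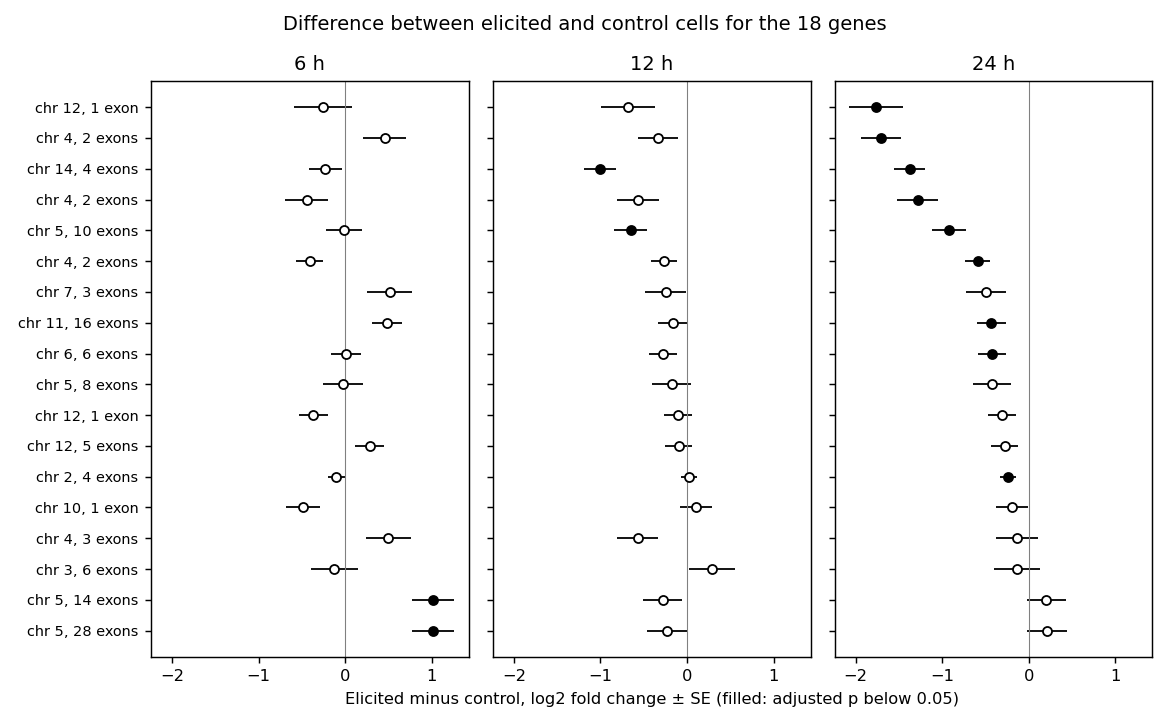
Log2 fold change of elicited over control cells with its standard error (x axis) for each of the 18 genes (y axis, named by chromosome and exon number, ordered by the 24 h value) at 6, 12 and 24 h; filled points passed the test. Filled points number 2 at 6 h, to the right of zero, 2 at 12 h and 9 at 24 h, both to the left.

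Whether the effect of elicitation itself differed between 6 and 24 h was tested as a difference of the differences. It was lower at 24 h in 6 of the 18 genes, against 6.94% of all tested genes, and higher in 0, against 10.2%. Among the genes with even controls the shares were 1.82% and 9.16%. DESeq2 gave 6 and 0, and an unadjusted p below 0.05 was reached by 10 and 0. The median difference over the 18 was -0.72 log2 units, against 0.041 over all tested genes. The 6 genes were Mal_HE_154X_1_chr004g021330, Mal_HE_154X_1_chr012g016030, Mal_HE_154X_1_chr014g002590, the 10-exon gene of chromosome 5, the 16-exon gene of chromosome 11 and the 3-exon gene of chromosome 7. The count rested on few controls: it was 2 without control 6 h replicate 2, and 3 without control 24 h replicate 1 or 2. Of the 18 genes, 16 were higher in control 6 h replicate 1 than in control 6 h replicate 2, with a median coefficient of variation of 22.7% between them, against 3.79 to 7.97% in the controls of other times.

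Steps within elicited cells from 6 to 24 h use no library that the rule read. They lie inside the span over which the rule required a fall of at least 2.5 times, so falls were favoured by the choice. The genes set beside the 18 were not chosen for a fall, so the counts cannot show more than when the fall took place. From 6 to 12 h, 9 of the 18 genes fell, against 20.3% of all tested genes, and 0 rose, against 23.4%. The 9 include both names of the overlapping locus on chromosome 5. Among the genes with even controls 21.1% fell and 16.2% rose. DESeq2 gave 12 and 0, and an unadjusted p below 0.05 was reached by 12 and 0. The median log2 change was -0.43 over the 18 and 0.021 over all tested genes. From 12 to 24 h, 4 fell, against 5.4% of all tested genes, and 0 rose, against 4.99%, while 3.71% and 2.19% did among the genes with even controls. DESeq2 gave 5 and 0, and 11 and 0 passed an unadjusted p below 0.05. The median log2 change was -0.29, against -0.023 over all tested genes. Of the 18, 11 fell in 1 or both of these steps, with both names of that locus counted, and 2 fell in both.

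How the fall was divided between the steps depended on single libraries. With both libraries that stood apart left out, 14 genes fell from 6 to 12 h and 3 from 12 to 24 h, and without elicited 12 h replicate 4 alone 13 and 2. Without elicited 6 h replicate 1, which held the highest of the 3 values for 11 of the 18 genes, 5 fell from 6 to 12 h. The time at which the elicited mean first stood at or below 50% of its 0.5 h value was 6 h for 2 genes, 12 h for 7, 24 h for 6 and 48 h for 3, counted with the 0.5 and 48 h means that the rule read.

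The greatest differences at 24 h among the 18 were those of a single-exon gene on chromosome 12 and a 2-exon gene on chromosome 4. Mal_HE_154X_1_chr012g016030 (chromosome 12, 16368657 to 16370045, plus strand, 1389 bases) stood in controls at 6.30 and 9.76 CPM (0.5 h), 12.4 and 5.65 (6 h), 9.35 and 9.60 (12 h), 13.8 and 12.9 (24 h), 7.86 and 15.4 (48 h) and 15.1 and 14.5 (72 h). In elicited cells it stood at 6.61, 12.1 and 7.37 CPM (0.5 h), 6.64, 8.00 and 6.62 (6 h), 6.26, 3.10, 4.26 and 6.97 (12 h) and 3.55, 4.30, 2.65 and 2.81 (24 h). Its 48 h elicited values lay between 1.88 and 3.18 CPM and its 72 h values between 2.72 and 4.42. The treatments overlapped at 0.5 and 6 h and were separate from 12 h onward. Its log2 fold change was -0.26 (SE 0.33) at 6 h, -0.68 (SE 0.31) at 12 h and -1.77 (SE 0.31) at 24 h, with adjusted p-values of 0.733, 0.118 and 4.68e-05 (edgeR). The effect at 24 h was lower than at 6 h by a log2 difference of -1.51 (SE 0.46, adjusted p = 0.0229, edgeR). Its controls were not level: they went from a mean of 8.03 ± 2.44 CPM at 0.5 h to 14.8 ± 0.43 CPM at 72 h (SD, n = 2 each).

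Mal_HE_154X_1_chr004g021330 (chromosome 4, 20880323 to 20887165, plus strand, 2 exons) stood far below its controls at 24 h. At 6 h its lowest elicited value, 20.9 CPM, was barely above the higher control, 20.8 CPM, and the difference was not called. Control libraries gave 21.9 and 24.7 CPM (0.5 h), 20.8 and 13.2 (6 h), 20.3 and 23.6 (12 h), 31.7 and 36.0 (24 h), 17.6 and 20.3 (48 h) and 30.0 and 27.2 (72 h). Elicited libraries gave 22.4, 21.6 and 20.4 CPM (0.5 h), 20.9, 21.3 and 23.5 (6 h), 12.5, 14.2, 14.5 and 19.3 (12 h) and 8.81, 7.22, 8.18 and 11.4 (24 h). They then lay between 2.34 and 7.29 CPM at 48 h and between 2.72 and 4.98 at 72 h, where the mean was 12.8% of control, the lowest share among the 18. Every elicited value of 12 h and later was below both controls of its time. The log2 fold change was 0.45 (SE 0.25, adjusted p = 0.333) at 6 h and -1.70 (SE 0.23, adjusted p = 1.08e-06) at 24 h (edgeR). The difference between these times, -2.16 (SE 0.35), had an adjusted p of 6.1e-05 (edgeR). Part of this difference lay in the controls, whose means spread 1.99-fold, the widest of the 18. The control mean was lowest at 6 h and highest at 24 h, at 72.9% and 145% of its 0.5 h value. The elicited mean stood at 102% and 41.4% of its own at these times. Within elicited cells the gene fell from 6 to 12 h by 0.61 (SE 0.21) and from 12 to 24 h by 0.81 (SE 0.20) on the log2 scale, with adjusted p-values of 0.0194 and 0.00901 (edgeR).

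Mal_HE_154X_1_chr014g002590 (chromosome 14, 2046710 to 2051062, minus strand, 4 exons) was 1 of the 2 genes already lower at 12 h, when its controls stood at their highest. Control libraries gave 59.5 and 61.8 CPM (0.5 h), 92.3 and 48.7 (6 h), 101 and 109 (12 h), 89.3 and 79.8 (24 h), 44.4 and 63.0 (48 h) and 70.4 and 69.0 (72 h). Elicited libraries gave 49.7, 42.7 and 45.5 CPM (0.5 h), 45.2, 70.2 and 54.6 (6 h), 46.3, 33.9, 40.8 and 61.9 (12 h) and 23.8, 24.1, 31.5 and 32.3 (24 h). The groups overlapped at 6 h and were separate at each other time. At 12 h the elicited mean was still 99.6% of its 0.5 h value, while the control mean was 173% of its own. The log2 fold change was -1.01 (SE 0.18, adjusted p = 0.0002) at 12 h and -1.37 (SE 0.18, adjusted p = 7.67e-07) at 24 h (edgeR). In elicited cells the gene fell by 0.76 (SE 0.16) on the log2 scale from 12 to 24 h (adjusted p = 0.00209, edgeR), and at 48 and 72 h it stood between 16 and 22 CPM.

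**Figure D4:**
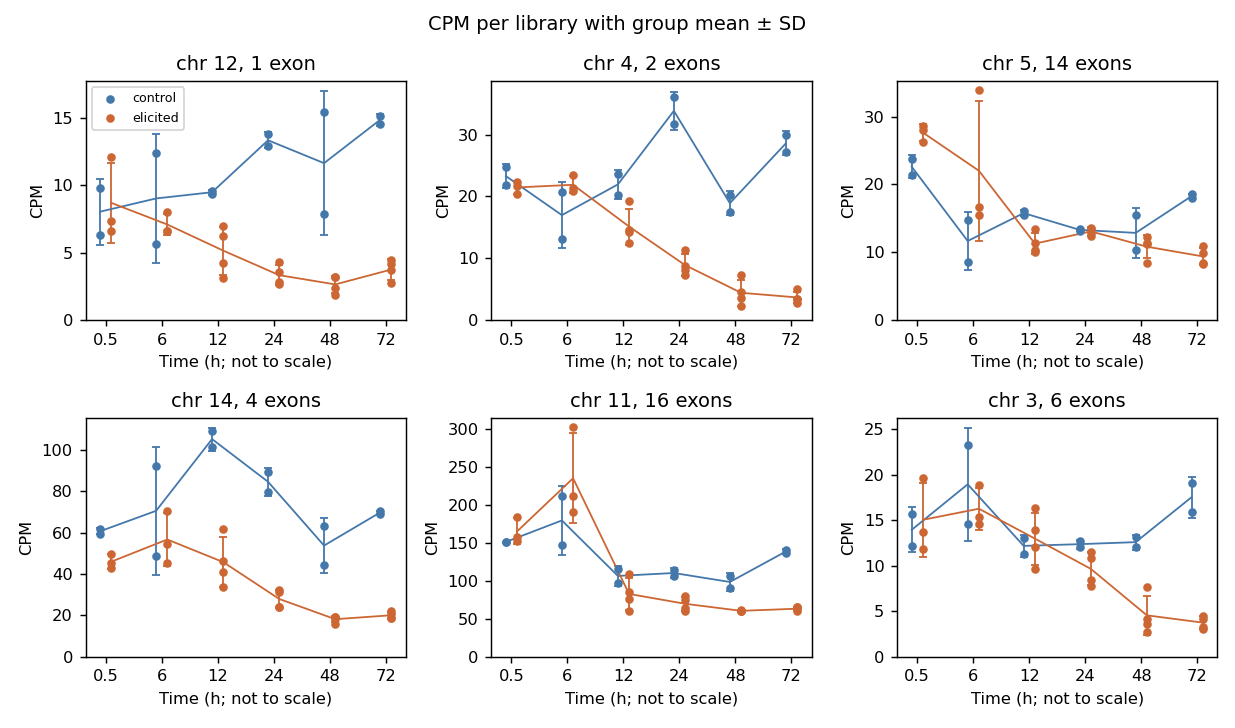
CPM (y axis) in each library by time (x axis) for 6 of the 18 genes, named by chromosome and exon number, controls in blue and elicited cells in orange; lines join group means and bars are SD. The chromosome 12, chromosome 4 and chromosome 14 genes separate by 24 h, the chromosome 5 and chromosome 11 genes have 1 high elicited library at 6 h, and in the chromosome 3 gene the distance is widest at 72 h.

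A 2-exon gene of chromosome 4 (20199373 to 20202825, plus strand) had the most even controls of the 18, whose highest and lowest means differed 1.22-fold. It already stood below control early: at 0.5 h elicited libraries gave 11.7 to 14.0 CPM, against 15.6 and 20.4 in controls. At 6 h they gave 13.6 to 15.8 CPM, against 17.5 and 25.0, a difference that was not called. Its elicited mean was 59.1% of the 0.5 h value at 24 h and 38.7% at 48 h. Its log2 fold change at 24 h was -1.28 (SE 0.24, adjusted p = 8.36e-05, edgeR). At 12 h elicited replicate 4 gave 17.8 CPM, inside the range of the controls, and the other elicited libraries between 6.68 and 11.1. The 10-exon gene of chromosome 5 was lower at 12 h by a log2 fold change of -0.65 (SE 0.19) and at 24 h by -0.92 (SE 0.19), with adjusted p-values of 0.0145 and 0.000382 (edgeR). It was also the lowest of the 18 in controls per length, at 4.37 CPM per kb of exon.

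The other genes lower at 24 h differed less. A 2-exon gene of chromosome 4 (16041151 to 16043427, minus strand) stood at 25.8 and 25.9 CPM in 24 h controls and at 13.0, 13.0, 14.7 and 18 in elicited cells, a log2 fold change of -0.59 (SE 0.15). At 72 h its elicited mean was 1.64 times that at 48 h, the greatest return among the 18, while its control mean went from 24.2 to 40.5 CPM. The 16-exon gene of chromosome 11 (12749865 to 12758681, minus strand) gave -0.43 (SE 0.16), the 6-exon gene of chromosome 6 (15574393 to 15578802, minus strand) -0.42 (SE 0.16) and the 4-exon gene of chromosome 2 (14155985 to 14158827, plus strand) -0.24 (SE 0.09). The adjusted p-values of these 4 genes were 0.00214, 0.0361, 0.0411 and 0.0369 (edgeR). The chromosome 6 and chromosome 2 genes also fell from 12 to 24 h in elicited cells, by 0.48 (SE 0.14) and 0.25 (SE 0.07) on the log2 scale, which completes the 4 genes called in that step (adjusted p = 0.0224 and 0.0303, edgeR).

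The chromosome 2 gene, the highest of the 18 in controls per length at 97.3 CPM per kb, was already near 50% of its starting level at 6 h in both treatments. It went from 230 and 239 CPM at 0.5 h to 130 and 127 at 6 h in controls, and from 210, 236 and 232 to 110, 125 and 107 in elicited cells. Controls then lay between 121 and 147 CPM to 72 h, while the elicited means were 99.3 CPM at 24 h, 90.2 at 48 h and 82.3 at 72 h. Its early course was shared and its late distance small, 56.6% of control at 72 h.

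At 6 h the locus on chromosome 5 with its overlapping pair was the exception among the 18. Counted as Mal_HE_154X_1_chr005g018210 it stood at 14.7 and 8.59 CPM in 6 h controls and at 33.9, 16.6 and 15.5 in elicited cells, so the groups did not overlap. Elicited replicate 1 was far above the other elicited libraries, and control replicate 1 above control replicate 2. The log2 fold change was 1.02 (SE 0.24, adjusted p = 0.0112, edgeR), but 0.52 without elicited 6 h replicate 1 (adjusted p = 0.121) and 0.74 without control 6 h replicate 2 (adjusted p = 0.227, edgeR), so the call rested on these libraries. Over all alternatives the adjusted p lay between 0.00157 and 0.227. By 12 h it had fallen by 1.05 (SE 0.20) on the log2 scale in elicited cells (adjusted p = 0.000101, edgeR), to between 9.98 and 13.4 CPM. At 24 h it stood at 13.4 and 13.2 CPM in controls and at 12.4, 13.5, 13.6 and 12.8 in elicited cells, which overlap, with a log2 fold change of 0.20 (SE 0.23). Its fall from 0.5 to 48 h, which the rule read, was 2.55-fold in elicited cells and 1.76-fold in controls. At 48 h the treatments overlapped, with 10.3 and 15.4 CPM in controls against 8.37 to 12.2 in elicited cells, whose mean was 84.2% of control. They were apart at 72 h, also read by the rule, with 18.5 and 18 CPM in controls against 8.26 to 10.9 in elicited cells. Counted as Mal_HE_154X_1_chr005g018220 the 6 h log2 fold change was 1.01 (SE 0.24, adjusted p = 0.0115, edgeR).

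Elicited 6 h replicate 1 was also the high library for the chromosome 11 gene. This gene gave 212 and 147 CPM in 6 h controls and 303, 212 and 191 in elicited cells, and stood at 142% of its 0.5 h mean in elicited cells. It then fell by 1.59 (SE 0.14) on the log2 scale to 12 h (adjusted p = 2.39e-09, edgeR), the steepest step of the 18, to 76.6, 59.9, 85.5 and 109 CPM. Its controls also stood lower at 12 h, at 97.3 and 116 CPM. From 24 to 72 h its elicited libraries lay between 59.9 and 80.1 CPM and its controls between 90.3 and 141.

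Of the 9 genes not called at 24 h, 4 fell from 6 to 12 h: the overlapping pair, a 3-exon gene of chromosome 4 (16276864 to 16278696, minus strand) and a 5-exon gene of chromosome 12 (11476323 to 11479457, plus strand). The last of these went from 16.8, 10.4 and 11.8 CPM to 8.21, 8.00, 11 and 10.03 in that step, a log2 change of -0.56 (SE 0.14, adjusted p = 0.00202, edgeR). From then on it was even in elicited cells, with means of 9.31, 9.76, 9.48 and 9.57 CPM from 12 to 72 h, while its control mean went from 11.5 CPM at 12 h to 19.2 at 72 h. Between 12 and 72 h it was thus the control mean that moved. The 3-exon gene of chromosome 4 fell by 0.76 (SE 0.21) on the log2 scale from 6 to 12 h (adjusted p = 0.0048, edgeR), and its elicited mean was 7.12 CPM at 24 h and 3.78 CPM at 48 h.

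In 4 of the 18 genes none of the 6 tested comparisons was called, so no test bears on their low level at 48 and 72 h, which the rule read. The lowest of these at 72 h relative to control was a 6-exon gene of chromosome 3 (19496967 to 19500713, plus strand). It stood in controls at 12.7 and 12 CPM (24 h), 13.2 and 12 (48 h) and 15.9 and 19.1 (72 h). Elicited cells gave 8.48, 7.77, 11.5 and 10.9 CPM (24 h), 4.2, 2.77, 7.67 and 3.57 (48 h) and 4.53, 3.32, 4.13 and 3.03 (72 h). At 24 h every elicited library was below both controls on the CPM scale, but the log2 fold change was -0.14 (SE 0.26, adjusted p = 0.72, edgeR). At 48 h the highest elicited value was that of replicate 3, the library that stood apart. The mean was 21.4% of control at 72 h. This gene was 1 of the 4 that met the rule in each of the 34 settings that left out 1 library.

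The other 3 genes called in none of the comparisons were single-exon genes of chromosomes 10 (16931913 to 16933061, plus strand) and 12 (3904966 to 3906510, minus strand) and an 8-exon gene of chromosome 5 (10824996 to 10830057, minus strand). In all 3 the controls also dipped in mid-course and stood near their 0.5 h level again at 72 h. The chromosome 10 gene went from 22.2 CPM at 0.5 h to 11.8 (12 h) and 22 (72 h) in controls, and from 20.1 to 11 and 7.75 in elicited cells (means of 2 to 4 libraries). The chromosome 12 gene went from 99.4 to 52.7 and 103 in controls, and from 127 to 42.8 and 41.7 in elicited cells. The 8-exon gene of chromosome 5 went from 12.4 to 7.54 and 13.4 in controls, and from 13.3 to 5.8 and 5.42 in elicited cells. A 3-exon gene of chromosome 7 (6959283 to 6964920, minus strand) was not called at 6, 12 or 24 h alone, but its effect was lower at 24 h than at 6 h by a log2 difference of -1.0 (SE 0.35, adjusted p = 0.0439, edgeR).

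At the times the rule read, every elicited library was below every control of its time for 2 of the 18 genes at 0.5 h (23.8% of all tested genes), for 16 in the 48 h groups (39.3%) and for 18 in those of 72 h (40.3%). Every elicited library of 0.5 h was above both controls for 5 of the 18 genes, against 2329 of the 20107 tested genes. The choice of genes largely fixed these counts, and nothing is read from them. At 72 h the elicited mean lay between 12.8% and 56.6% of the control mean, with a median of 38.1%. Control means at 72 h were above those at 48 h in 16 of the 18 genes, while the elicited mean at 72 h was above that at 48 h in 11. At 48 h the elicited mean was between 22.7% and 84.4% of control, with a median of 40.1%.

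The 18 genes had a median of 4 exons (1 to 28) and a median summed exon length of 1542.5 bases (885 to 3026), against 5 exons and 1585 bases over all tested genes. Genes with 1 exon made up 3 of 18 (16.7%, Wilson 95% interval 5.84 to 39.2%), against 15.8% of all tested genes and 6.83% of the genes with even controls. Per length the control level of the 18 had a median of 12.3 CPM per kb of exon, against 10.1 over all tested genes and 21.0 over those with even controls, and the single genes lay between the 34.5th and the 93.4th percentile of the tested genes. All 18 passed the filter on low counts. The intervals cover counting error only.

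They lay on 10 chromosomes, with 4 on chromosome 4, 4 on chromosome 5, 3 on chromosome 12 and 1 on each of 7 others. Apart from the overlapping pair, no 2 were adjacent. The closest were the 10-exon and 8-exon genes of chromosome 5, with 60938 bases between them and 12 places apart in gene order. The genes directly beside the 18 numbered 34, of which 25 were tested, and at 24 h 8 of the 25 were lower and 4 higher in elicited cells (17.9% and 21.7% of all tested genes), with a median log2 fold change of -0.14.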

How the data were processed

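The authors deposited 1 table of whole-number read counts per gene with exon coordinates and no normalization; each column was matched to its sample by its label. Per the submitters' processing notes fastp, STAR and featureCounts were used; versions, build, annotation, strand setting and treatment of reads shared by several genes: not given in the sources used here. RNA was made into libraries with a stranded mRNA kit, per the labels' protocols. Replicates are separate flasks per the labels, filled from a suspension 14 days old; no label says that their parent cultures differed, so the p-values cover flask-to-flask spread, which may be technical. A pooled long-read sample was not analysed here.

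CPM used column totals. Tests used R 4.3.3 and edgeR 4.0.16: filterByExpr (minimum count 10; 20107 of 31401 genes kept), TMM scaling (factors 0.814 to 1.22), 1 quasi-likelihood model with 12 group means over 34 libraries, and Benjamini-Hochberg adjustment over all tested genes, called below 0.05. Each standard error is the absolute log2 change divided by the root of its F statistic. DESeq2 1.42.0 was an alternative. Same-group libraries differed beyond sampling noise (36 pairs, chi-square over its degrees of freedom 2.79 to 94.7), so each library counts once. No clear pairing by replicate number was seen, and the numbers were used as a block only in alternative fits.

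Members, tests and alternatives were chosen with earlier results of these data known. Identifiers are given for the 2 genes lowest at 24 h, the 2 highest at 6 h and the 2 with the greatest fall from 12 to 24 h, among those called; genes given by position were chosen after their values were seen. Gene lists by function were not tested, as the table has no gene names.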

Additional observations from a re-analysis of the deposited data

Results flagged for a closer look

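In 72 groups of 4 elicited libraries (18 genes at 4 times), 4 held a value far from the other 3 by Dixon's ratio of gap to range, which chance alone passes in about 1 of 20 groups. Elicited 12 h replicate 4, the library that stood apart on the second principal component, gave 60.2 CPM for the single-exon gene of chromosome 12 at 3904966, where the others gave 35.6 to 39.4. Elicited 12 h replicate 1 gave 9.13 CPM for the 3-exon gene of chromosome 7, where the others gave 7.50 to 7.66. Elicited 48 h replicate 1 gave 62.0 CPM for the 16-exon gene of chromosome 11, where the others gave 59.9 to 60.2. Elicited 72 h replicate 3 gave 77.3 CPM for the 4-exon gene of chromosome 2, where the others gave 83.5 to 84.4.

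The effect of elicitation differed between 6 and 24 h in 6 genes, in each case toward a lower value at 24 h (edgeR quasi-likelihood test, Benjamini-Hochberg). The log2 differences were -2.16 for Mal_HE_154X_1_chr004g021330, -1.51 for Mal_HE_154X_1_chr012g016030 and -1.15 for Mal_HE_154X_1_chr014g002590, with adjusted p-values of 6.1e-05, 0.0229 and 0.00347. For the 3-exon gene of chromosome 7, the 16-exon gene of chromosome 11 and the 10-exon gene of chromosome 5 they were -1.0, -0.91 and -0.90, with adjusted p-values of 0.0439, 0.00777 and 0.0267. The first of these 3 changes sign between the times, with values of 0.51 and -0.49 of which neither passed the test alone.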

How the results depend on the processing

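Scaling by library size alone gave 7 genes lower at 12 h and 14 at 24 h, with a 24 h median of -0.65, in place of 2, 9 and -0.42. TMM-scaled CPM in the rule left 10 genes, in place of 18. With only the libraries of the times compared in the fit, 1 gene was lower at 12 h and 0 were higher at 6 h, where the log2 fold changes of the chromosome 5 pair were 1.04 and 1.03, in place of 1.02 and 1.01 (adjusted p = 0.215 and 0.217, edgeR). With both libraries that stood apart left out (replicate 4 of elicited 12 h, replicate 3 of elicited 48 h), 4 genes were lower at 12 h and 14 fell from 6 to 12 h. Leaving out 1 library gave 0 to 3 genes higher at 6 h, 1 to 3 lower at 12 h, 6 to 8 lower at 24 h, 5 to 13 falling from 6 to 12 h, 2 to 4 falling from 12 to 24 h and 2 to 9 with a lower effect at 24 h than at 6 h. It gave 6 h medians from -0.11 to 0.19 and 12 to 21 genes in the rule. The 0 of genes higher at 6 h came without control 6 h replicate 2 or elicited 6 h replicate 1, and the median of 0.19 without control 6 h replicate 1. The causes were not tested.

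With the replicate number of the titles as a block, 3 genes were lower at 12 h, 8 at 24 h and 12 fell from 6 to 12 h. With the number in the column label as the block these were 2, 8 and 9. Same-numbered control and elicited libraries deviated together with correlations from -0.0884 to 0.141 (title) and -0.124 to 0.0746 (column label), so no clear pairing was seen. With 2 controls at each time their deviations from the group mean mirror each other, so this check cannot exclude pairing. Pseudocounts of 0.5 and 2 in the rule gave 20 and 16 genes. With 2 controls at each time, small differences of single genes were the least certain.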
